A study of Mus musculus with 8 samples.

Results

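The small leucine-rich proteoglycans examined here were 9 genes (Ogn, Nepn, Dcn, Lum, Bgn, Fmod, Aspn, Prelp and Omd). They were read by 20 of the 45037 probe sets on Affymetrix mouse arrays, and stand for 9 of 18193 genes with a probe set of a single gene symbol. The genes were listed by family, and the family was picked on the G1 minus G0 differences of these arrays, with Ogn and Nepn named first among its members. Their differences between the groups are therefore given as a description, and no test is read from them.

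Small leucine-rich proteoglycans are secreted proteins of the extracellular matrix, built around a curved run of leucine-rich repeats. Many carry chondroitin, dermatan or keratan sulfate chains. They bind fibrillar collagen and set the diameter and spacing of its fibrils. Several also bind growth factors of the transforming growth factor beta (TGF-beta) family or cell surface receptors, and fibroblasts are a main source of them in connective tissue.

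The cells were NIH3T3, an established line of mouse embryonic fibroblasts, that had been transduced with the fluorescent reporters mVenus-p27K- and mCherry-hCdt1(30/120). All of them were first kept without serum and then given 10% serum for 5 h. Cells positive for both mVenus and mCherry were sorted as G0, and cells negative for mVenus but positive for mCherry as G1, with 4 arrays of each. Both groups thus came from cells transduced with both reporters and had the same serum history. The comparison asks how cells with signal of the p27 reporter differed from cells without it. Which promoter drove the reporters is not given in the sources used. The labels do not say whether the replicates were separate cultures, so the spread between arrays may be technical.

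Each value is a log2 expression value relative to the median of its probe set over the 8 arrays. The log base is not stated and was taken as 2. Differences between arrays can be read from such values, but the level of a gene cannot, so neither the rank of the genes by abundance nor the presence of fibroblast markers could be checked. Where the groups did not overlap, the centring places the lowest array of the upper group and the highest array of the lower group at equal distances from 0. Replicate 4 of each group was labelled with another revision of the kit protocol and another RNA input, per the labels. The bacterial poly-A controls that are added to RNA before labelling did not follow that split. Their median was −6.22 on G0 replicate 3 and −6.09 on G1 replicate 4, and lay between −0.13 and 0.59 on the other 6 arrays. Array medians lay between −0.07 and 0.09. The sources used do not settle whether the titles of G0 replicates 3 and 4 are exchanged. If they were, labelling batch 2 would be the 2 arrays without poly-A controls, and the values given here by labelling batch, as well as the SE and p of the fit that used it, would change. The group differences on 8 arrays would not. Differences of the members are therefore also given on the 6 arrays with poly-A controls.

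Ogn and Nepn were the members with lower signal in G1 on every probe set and on every G1 array. The sequences upstream of their annotated starts are shown because their probe sets were lower together, and that of Omd because it is the gene next to Ogn and its groups overlapped. Each is the 250 bases before the start in RefSeq for assembly GRCm38.p6. Ogn lies at chr13:49607765-49608014, Nepn at chr10:52391358-52391607 and Omd at chr13:49582212-49582461, all on the plus strand. Capitals mark matches to any of the motifs searched.
Ogn: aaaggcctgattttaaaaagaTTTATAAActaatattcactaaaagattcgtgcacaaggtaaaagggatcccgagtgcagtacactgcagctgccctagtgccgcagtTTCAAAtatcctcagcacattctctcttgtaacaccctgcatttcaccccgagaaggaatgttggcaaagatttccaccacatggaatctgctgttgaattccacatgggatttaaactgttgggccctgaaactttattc
Nepn: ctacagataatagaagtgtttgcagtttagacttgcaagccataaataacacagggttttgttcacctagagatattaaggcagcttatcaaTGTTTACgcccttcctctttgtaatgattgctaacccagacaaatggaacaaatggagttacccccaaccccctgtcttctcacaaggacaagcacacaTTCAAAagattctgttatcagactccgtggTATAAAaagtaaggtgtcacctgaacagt
Omd: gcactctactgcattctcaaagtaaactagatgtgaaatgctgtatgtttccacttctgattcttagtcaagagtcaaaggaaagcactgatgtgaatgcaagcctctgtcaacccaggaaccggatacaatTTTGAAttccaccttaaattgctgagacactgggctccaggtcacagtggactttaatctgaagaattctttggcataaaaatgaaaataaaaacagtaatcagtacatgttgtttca

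The motifs searched on both strands were the core promoter motif TATAAA, the box CCAAT, the GC box written as GGGCGG, the AP-1 motif written as TGANTCA, the FoxO motif written as GTAAACA and the CHR element of cell cycle genes, TTTGAA. The E2F motif was searched as TTTGGCGC and, in its other form, as TTTCGCGC. TTTGAA was found once in each of the 3 sequences, at 141 bases before the start in Ogn, 59 in Nepn and 118 in Omd. It was present in 16.0% of the 32851 sequences of this length in the table. The Nepn sequence held TATAAA at 29 bases before the start, and the Ogn sequence held 2 overlapping matches to it at 229 and 227 bases before the start (12.4% of all sequences). Beyond the 3 sequences shown, TATAAA was also found in Aspn, at 207 and 178 bases before the start. TTTGAA was also found in Bgn, at 235 and 145 bases before the start. GTAAACA was found in Nepn only among the 7 members in the table, at 158 bases before the start (3.17% of all sequences). Neither E2F sequence was found in any of those 7 members (0.417% and 0.256% of all sequences), and nor was TGANTCA (6.75%). These are matches of letters in a window and do not show binding. Dcn and Lum were not in the table.

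Ogn encodes osteoglycin (mimecan), a class III member that is bound to collagen fibrils and carries keratan sulfate in some tissues. On probe set 1419662_at, G0 replicates 1 to 4 read 0.49, 0.92, 0.92 and 0.24, and G1 replicates 1 to 4 read −1.48, −0.24, −1.50 and −1.21. All 4 G0 arrays lay above all 4 G1 arrays, and G1 replicate 2 was the nearest to G0. The group means were 0.64 ± 0.34 in G0 and −1.11 ± 0.59 in G1 (SD, n = 4 each), a log2 difference of −1.75 (SE 0.38), or 3.36-fold lower in G1. In bulk RNA, fewer cells with the transcript and less transcript per cell cannot be told apart.

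The other Ogn probe set, 1419663_at, gave the same order of groups. It read 1.21, 1.20, 0.66 and 0.36 on G0 replicates 1 to 4, and −1.23, −0.36, −1.15 and −1.82 on G1 replicates 1 to 4. Again no array of one group lay within the other, and again G1 replicate 2 was the highest of its group. The log2 difference was −2.00 (SE 0.30; means 0.86 ± 0.42 and −1.14 ± 0.60, SD, n = 4), or 3.99-fold. Over the 8 arrays the 2 probe sets differed from each other by 0.34 on average in absolute value, against a median of 0.66 over all 30372 pairs of probe sets of the same gene.

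The difference of Ogn was present on both sides of each split of the arrays. On the 6 arrays with poly-A controls it was −1.62 and −1.84 for the 2 probe sets, and between the 2 arrays without them −2.14 and −2.48. Within labelling batch 1 it was −1.85 and −1.94, and between the 2 arrays of batch 2 it was −1.45 and −2.17. A comparison of 1 array with 1 array has no error of its own.

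Nepn encodes nephrocan, a secreted leucine-rich repeat protein described as an inhibitor of TGF-beta signalling. Its only probe set, 1419065_at, read 1.41, 1.17, 0.36 and 1.47 on G0 replicates 1 to 4. It read −0.36, −1.47, −1.19 and −0.95 on G1 replicates 1 to 4. The groups did not overlap, and the G0 array nearest to G1 was replicate 3, one of the arrays without poly-A controls. The G0 mean was 1.10 ± 0.51 and the G1 mean −0.99 ± 0.47 (SD, n = 4), a log2 difference of −2.09 (SE 0.35), or 4.26-fold lower in G1. The difference was −2.35 on the 6 arrays with poly-A controls and −1.31 between the other two. It was −1.98 in labelling batch 1 and −2.42 in batch 2.

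**Figure D1:**
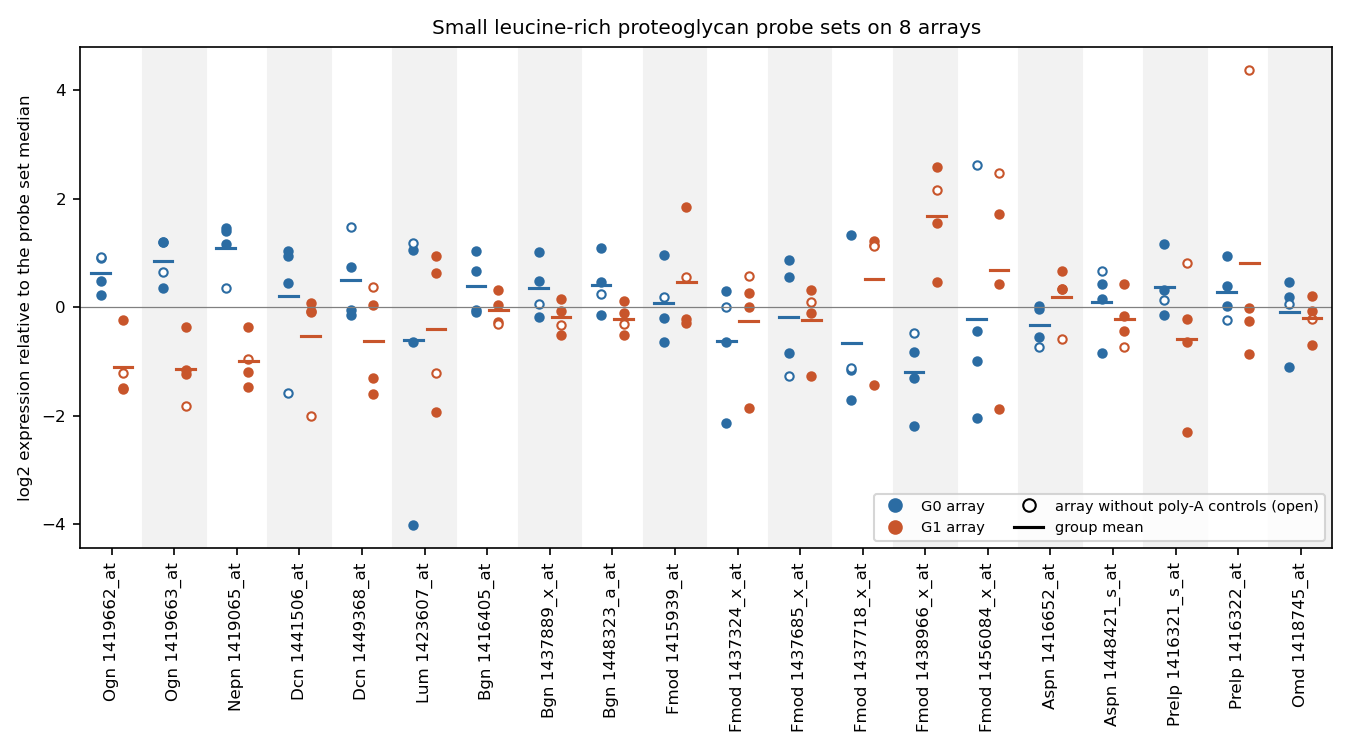
Values of the 20 probe sets on the 8 arrays. The vertical axis is log2 expression relative to the median of the probe set, each point is 1 array (G0 blue, G1 orange, open where the poly-A controls were absent) and horizontal bars are group means of 4 arrays. Both Ogn probe sets and that of Nepn have all G1 points below all G0 points, Fmod probe set 1438966_x_at has the reverse, and the groups overlap in the other 16.

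Counts over the family are set beside those of the whole array. All G1 arrays lay below all G0 arrays in 3 of the 20 member probe sets and in 2.90% of all probe sets. All G1 arrays lay above all G0 arrays in 1 of the 20 and in 3.16% of all probe sets. In limma, 0 of the 20 had an adjusted p under 0.05 in either direction, where 0.400% of all probe sets did, and 0 of the 20 were lower at that threshold, where 0.0266% were. An unadjusted p under 0.05 was found for 4 of the 20, where 7.30% of all probe sets had one. The difference was negative in 12 of the 20 and in 55.0% of all probe sets. With 1 probe set per gene it was negative in 5 of the 9 genes and in 55.3% of all genes. Its median was −0.21 over the 20, with a range from −2.09 to 2.89, and −0.06 over all probe sets. Nothing is read from these counts, since the members were chosen with this contrast known.

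The class I members in this set were decorin, biglycan and asporin. Dcn encodes decorin, which binds collagen I and TGF-beta and carries a single chondroitin or dermatan sulfate chain. Both of its probe sets had lower means in G1, but both overlapped between the groups and they disagreed array by array. Probe set 1441506_at read 0.95, 1.05, −1.57 and 0.45 on G0 replicates 1 to 4 and 0.07, −0.07, −0.09 and −2.00 on G1 replicates 1 to 4. Its lowest array in each group was the one without poly-A controls. Averaged over the groups, the log2 difference of those arrays from the others was −2.18, larger in size than the group difference of −0.74 (SE 0.69). On the 6 arrays with poly-A controls the group difference was −0.85. It was −0.17 within labelling batch 1, −2.45 between the 2 arrays of batch 2, and −1.45 without G0 replicate 3.

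The other Dcn probe set, 1449368_at, read 0.74, −0.14, 1.49 and −0.04 on G0 replicates 1 to 4. On G1 replicates 1 to 4 it read 0.04, −1.60, −1.29 and 0.38. Here the arrays without poly-A controls were the highest of their groups, by 1.32 on average (log2). The group difference was −1.13 (SE 0.58), and −1.14 on the 6 arrays with those controls. It was −1.65 within labelling batch 1 and 0.42 between the 2 arrays of batch 2, so its direction was not the same in both. The Dcn probe sets differed from each other by 1.26 on average over the 8 arrays.

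Bgn encodes biglycan, a close relative of decorin that can also signal through Toll-like receptors. Its 3 probe sets traced the same profile, with mean absolute differences between pairs of 0.05 to 0.16 over the 8 arrays. Probe set 1448323_a_at read 1.10, 0.47, 0.25 and −0.14 on G0 replicates 1 to 4 and 0.11, −0.11, −0.52 and −0.31 on G1 replicates 1 to 4. On this probe set the groups overlapped through G0 replicate 4 only, and on 1416405_at and 1437889_x_at through G0 replicates 3 and 4. G0 replicate 1 was the highest array on all 3. The log2 differences of the 3 probe sets were −0.44 (SE 0.29), −0.53 (SE 0.29) and −0.63 (SE 0.28), or 1.36-fold to 1.55-fold lower in G1. They were −0.51, −0.58 and −0.65 on the 6 arrays with poly-A controls, and −0.25, −0.38 and −0.56 between the other two. In labelling batch 2 they were smaller, at −0.21, −0.14 and −0.17.

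Aspn encodes asporin, a class I protein that lacks the usual glycosaminoglycan chain and binds both collagen and TGF-beta. Its 2 probe sets had differences of opposite sign. Probe set 1416652_at read −0.54, 0.03, −0.73 and −0.03 on G0 replicates 1 to 4, and 0.35, 0.34, 0.68 and −0.58 on G1 replicates 1 to 4. All but the last of the G1 arrays lay above the whole of G0. Its difference was 0.52 (SE 0.34), 0.64 on the 6 arrays with poly-A controls, and −0.54 between the arrays of labelling batch 2. Probe set 1448421_s_at had a difference of −0.33 (SE 0.28), which was 0.03 on the 6 arrays with poly-A controls and −1.40 between the other two.

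The class II members in this set were fibromodulin, lumican, prolargin and osteomodulin, most of which can carry keratan sulfate. Fmod encodes fibromodulin, which binds collagen I and takes part in its cross-linking. It had 6 probe sets, 5 with the suffix _x_at, which marks probes that may cross-hybridise with other transcripts. Their differences ran from −0.06 to 2.89, and pairs of them differed by 0.81 to 1.90 on average over the 8 arrays.

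The member probe set with the largest difference was Fmod 1438966_x_at. It read −0.83, −1.30, −0.47 and −2.19 on G0 replicates 1 to 4 and 1.56, 2.59, 0.47 and 2.16 on G1 replicates 1 to 4. All G1 arrays lay above all G0 arrays. The log2 difference was 2.89 (SE 0.56; means −1.20 ± 0.75 and 1.70 ± 0.92, SD, n = 4), or 7.43-fold higher in G1. The difference was 2.98 on the 6 arrays with poly-A controls and 2.63 between the other two.

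The remaining Fmod probe sets did not show that difference. Probe set 1415939_at, the only one without the suffix, read −0.64, −0.19, 0.19 and 0.96 on G0 replicates 1 to 4 and −0.21, −0.29, 1.85 and 0.56 on G1 replicates 1 to 4. The groups overlapped almost wholly, and the difference was 0.40 (SE 0.54). The other 4 gave differences of 0.36 (1437324_x_at, SE 0.76), −0.06 (1437685_x_at, SE 0.61), 1.18 (1437718_x_at, SE 0.86) and 0.90 (1456084_x_at, SE 1.25). On the last of these the 2 arrays without poly-A controls were the highest of their groups, at 2.62 in G0 and 2.48 in G1, and lay 3.08 above the others on average. The size of that shift was at the 99.1 percentile of all probe sets. The group difference of this probe set was 1.25 on the 6 arrays with poly-A controls, 1.96 without G0 replicate 3 and 0.32 without G0 replicate 2. On those 6 arrays the differences of the others were 0.40 (1415939_at), 0.29 (1437324_x_at), −0.54 (1437685_x_at) and 0.82 (1437718_x_at). The values do not show which of the 6 probe sets, if any, follows fibromodulin mRNA.

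Lum encodes lumican, which regulates collagen fibrils in the cornea and skin. Its only probe set, 1423607_at, read 1.05, −4.01, 1.18 and −0.63 on G0 replicates 1 to 4, and 0.63, 0.95, −1.93 and −1.21 on G1 replicates 1 to 4. The spread within the groups (SD 2.42 and 1.40) was far larger than the difference of 0.21 (SE 1.31). The difference was 1.08 on the 6 arrays with poly-A controls and −2.39 between the other two. Without G0 replicate 2, the lowest array, it was −1.04 (SE 0.72). No difference could be read for Lum in either direction.

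Prelp encodes prolargin, a basic member of the family found where basement membrane meets connective tissue. Its 2 probe sets had opposite signs, and a single array set one of them. Probe set 1416322_at read 0.95, 0.39, −0.24 and 0.02 on G0 replicates 1 to 4 and −0.86, −0.25, −0.02 and 4.38 on G1 replicates 1 to 4. G1 replicate 4, which lacked the poly-A controls, lay far above all the others. The difference was 0.53 (SE 0.96) with that array, −0.74 within labelling batch 1, which leaves it out, and −0.83 on the 6 arrays with poly-A controls. Probe set 1416321_s_at read 1.17, 0.33, 0.13 and −0.13 on G0 replicates 1 to 4, and −0.64, −2.30, −0.21 and 0.82 on G1 replicates 1 to 4. Its difference was −0.96 (SE 0.64), and −1.50 on the 6 arrays with poly-A controls. The sign was the reverse between the 2 arrays without those controls (0.68) and between the 2 arrays of labelling batch 2 (0.95), and the difference was −0.40 without G1 replicate 2.

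Omd encodes osteomodulin, a keratan sulfate proteoglycan of mineralised tissue. Its probe set, 1418745_at, read −1.10, 0.20, 0.07 and 0.47 on G0 replicates 1 to 4, and −0.69, 0.20, −0.07 and −0.20 on G1 replicates 1 to 4. The groups overlapped throughout. The difference was −0.10 (SE 0.40), and −0.04 on the 6 arrays with poly-A controls.

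**Figure D2:**
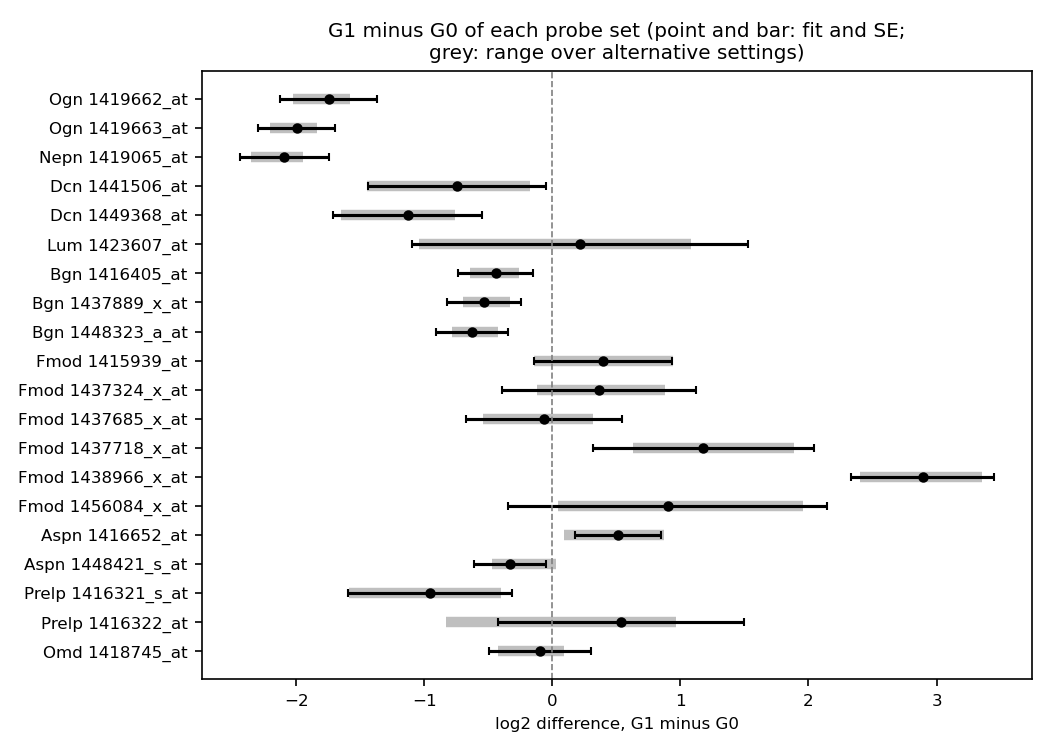
Log2 difference, G1 minus G0, of each probe set. Points and bars are the value and SE of the limma fit on 8 arrays, and grey bands span the values under the alternative settings. The bands of both Ogn probe sets (−2.02 to −1.58 and −2.20 to −1.84) and of Nepn (−2.35 to −1.95) stay below −1, while those of Lum (−1.04 to 1.08), Omd (−0.42 to 0.09) and Prelp 1416322_at (−0.83 to 0.96) cross 0.

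The members differed in how widely the arrays of a group scattered. The pooled within-group SD was 0.48 and 0.52 for Ogn, 0.49 for Nepn, and 0.41 to 0.44 for Bgn. These lay below the median of 0.70 over all probe sets. It was 1.98 for Lum, at the 97.9 percentile of all probe sets, 1.96 for Fmod 1456084_x_at and 1.74 for Prelp 1416322_at. In all, 11 of the 20 member probe sets had a pooled SD above the array's median. None of the 20 shared its lowest value between arrays, so a floor was not visible in them.

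**Figure D3:**
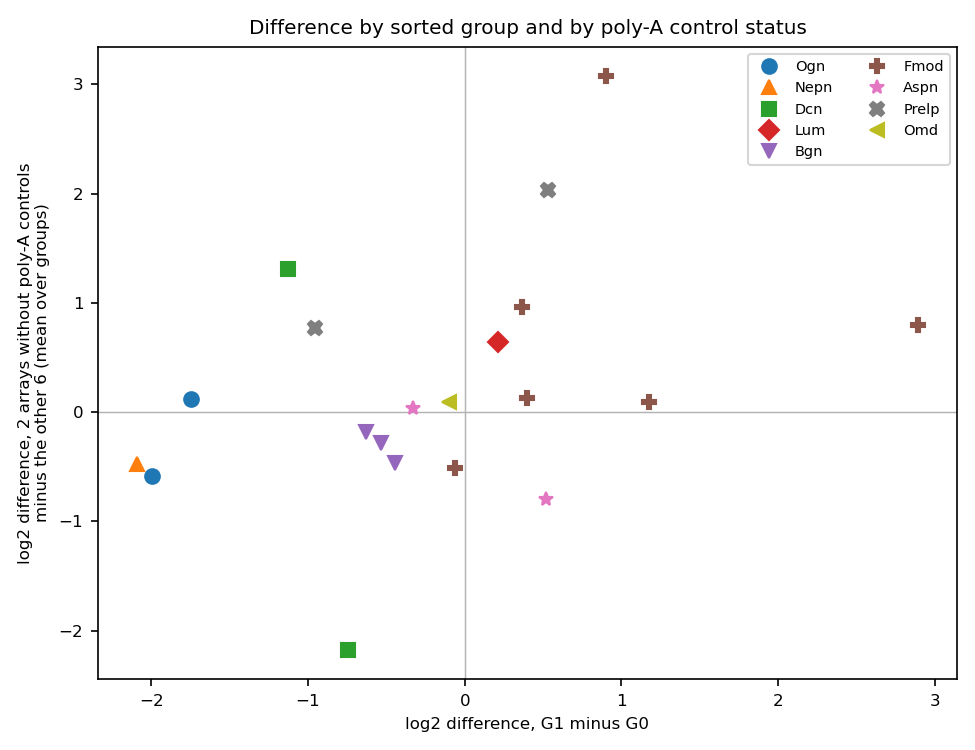
Group difference against poly-A status for each of the 20 probe sets. The horizontal axis is the log2 difference G1 minus G0, the vertical axis is the log2 difference between the 2 arrays without poly-A controls and the other 6, averaged over the groups. Ogn and Nepn lie far to the left at −0.58 to 0.12 on the vertical axis, whereas Dcn 1441506_at (−2.18), Prelp 1416322_at (2.04) and Fmod 1456084_x_at (3.08) differ more by poly-A status than by group.

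Several members are neighbours in the genome, by the order of protein-coding genes in GRCm38.p6. On chromosome 13 Ecm2, Aspn, Omd and Ogn follow each other. Ecm2 encodes a matrix protein with leucine-rich repeats. Of the 3 members in this run, Ogn alone had groups that did not overlap. On chromosome 10 Dcn, Lum, Kera and Epyc are adjacent. Kera encodes the corneal keratocan and Epyc the cartilage protein epiphycan. On chromosome 1 Optc, Prelp and Fmod are adjacent, and Optc is the gene of opticin in the eye. Nepn lies apart from the others on chromosome 10, between Gopc and Nus1.

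Likeness of profile was measured as the mean absolute difference from Ogn 1419662_at or from Nepn over the 8 arrays, with 1 probe set per gene. The nearest genes share the direction of the group difference by the choice itself, so their differences are a description. The 5 genes nearest to Ogn were Chrna4 (0.31), Carns1 (0.33), Rin2 (0.35), Stmn3 (0.37) and Cpeb4 (0.38), where the median gene lay at 0.99. Chrna4 encodes a subunit of the nicotinic acetylcholine receptor and Carns1 carnosine synthase. Their log2 differences between the groups were −1.49 (SE 0.47) and −2.34 (SE 0.43). The 5 genes nearest to Nepn were Gm15270 (0.28), Acsf2 (0.37), B230217O12Rik (0.37), Vldlr (0.39) and Saa3 (0.42), where the median gene lay at 1.15. Vldlr encodes a lipoprotein receptor and Saa3 an acute phase protein, with differences of −2.18 (SE 0.36) and −1.84 (SE 0.41).

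The 9 members were left out before those nearest genes were ranked, so none of them could appear there. Ogn and Nepn lay 0.74 from each other. Of all genes, 1702 lay closer to Ogn than Nepn did, and 342 lay closer to Nepn than Ogn did. Bgn lay 0.79 from Ogn and 0.82 from Nepn, while Lum lay 1.30 and 1.61 away. For Bgn, 2896 genes lay closer to Ogn and 931 closer to Nepn. For Lum, 14023 genes lay closer to Ogn and 15690 closer to Nepn.

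The other genes of proteoglycan biology were taken from 9 lists with 148 genes, of which 142 were measured. In limma, 0 of the 142 passed at an adjusted p under 0.05, where 0.522% of all genes did. At an unadjusted p under 0.05 there were 4 lower in G1 and 2 higher, together 4.23% of the 142, where 8.07% of all genes reached it. The median difference over the 142 was −0.15, and −0.06 over all genes. The number of genes with a negative difference is given for each list below, to be set beside 55.3% of all genes. None of these counts was tested. A p that misses the threshold does not show that these genes were alike in both groups.

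Among the 8 measured of the other small leucine-rich proteoglycans, 0 passed in limma, 0 had an unadjusted p under 0.05, 4 were negative and the median difference was 0.10. The highest in absolute moderated t were Chad (0.74, SE 0.59) and Epyc (−1.30, SE 1.12), and a single array carried most of each. Without G1 replicate 1 Chad differed by 0.27, and without G1 replicate 2 Epyc differed by −0.13. Of 22 genes that build chondroitin and dermatan sulfate chains, 0 passed, also at an unadjusted p under 0.05, 13 were negative and the median was −0.13. Chsy3, a chondroitin synthase, differed by −0.87 (SE 0.41), and by −1.35 on the 6 arrays with poly-A controls. Its lowest value, −0.62, was shared by G0 replicate 3 and G1 replicates 2 and 3, so a floor is possible. The sulfotransferase Chst13 differed by 1.30 (SE 0.70), and by 0.71 without G0 replicate 1. Of 8 genes for keratan sulfate 0 passed by either measure and 5 were negative (median −0.24). Chst5 differed by −1.57 (SE 1.16), and by −0.41 without G1 replicate 1. B4galt4 differed by −0.88 (SE 0.71), by −1.53 without G0 replicate 1 and by −0.31 within labelling batch 1. Of 9 genes of sulfate supply 0 passed by either measure and 4 were negative (median 0.02), with the transporters Slc35b3 at −0.29 (SE 0.20) and Slc35b2 at 0.41 (SE 0.32).

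The fibrillar collagens, the main partners of these proteoglycans, had a median difference of −0.49, and 9 of the 11 had a negative value, where 55.3% of all genes did. In limma 0 passed and 1 had an unadjusted p under 0.05. This was Col3a1, with a G0 mean of 0.31 ± 0.18 and a G1 mean of −0.41 ± 0.26 (SD, n = 4), a difference of −0.72 (SE 0.21, adjusted p = 0.432). Col5a1, of the minor collagen V that starts fibrils, differed by −0.49 (SE 0.24). Of 27 genes of fibril assembly and cross-linking 0 passed and 18 were negative (median −0.22). The nearest were Pcolce2, an enhancer of procollagen cleavage, at 1.19 (SE 0.47, adjusted p = 0.656), and the lysyl hydroxylase Plod1 at −0.65 (SE 0.27, adjusted p = 0.679).

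Tll1, a protease that cleaves procollagen, is named after its values were seen. It read −1.81, −1.48, 1.76 and −1.52 on G0 replicates 1 to 4 and 1.48, 2.36, 2.70 and −2.13 on G1 replicates 1 to 4. The arrays without poly-A controls were thus opposite to the rest of their groups. The difference was 1.86 (SE 0.94, adjusted p = 0.762) on 8 arrays and 3.78 (SE 0.35, limma adjusted p = 0.043) on the 6 arrays with those controls.

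Growth factors and receptors that members of this family bind had a median of −0.46, with 17 of 23 negative, where 55.3% of all genes were, and 0 that passed in limma. Tlr2, a receptor of biglycan, differed by −1.45 (SE 0.56, adjusted p = 0.642), the only one with an unadjusted p under 0.05, and Egfr, a receptor of decorin, by −0.85 (SE 0.48). Of 10 proteases that cleave these proteoglycans 0 passed and 7 were negative (median −0.36). Mmp9 differed by −1.09 (SE 0.38, adjusted p = 0.583), the only one with an unadjusted p under 0.05, and Mmp2 by −0.62 (SE 0.30). Of 24 other proteoglycans 0 passed and 10 were negative (median 0.05). Ncan, the brain proteoglycan neurocan, differed by 2.26 (SE 0.75, adjusted p = 0.541), the only one with an unadjusted p under 0.05. Its difference was 1.64 on the 6 arrays with poly-A controls, and −0.043 with the mean of all its probe sets. The glypican Gpc4 differed by −1.05 (SE 0.53), by −1.74 on those 6 arrays, by −0.62 without G1 replicate 1 and by −0.069 with the mean of all its probe sets.

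**Figure D4:**
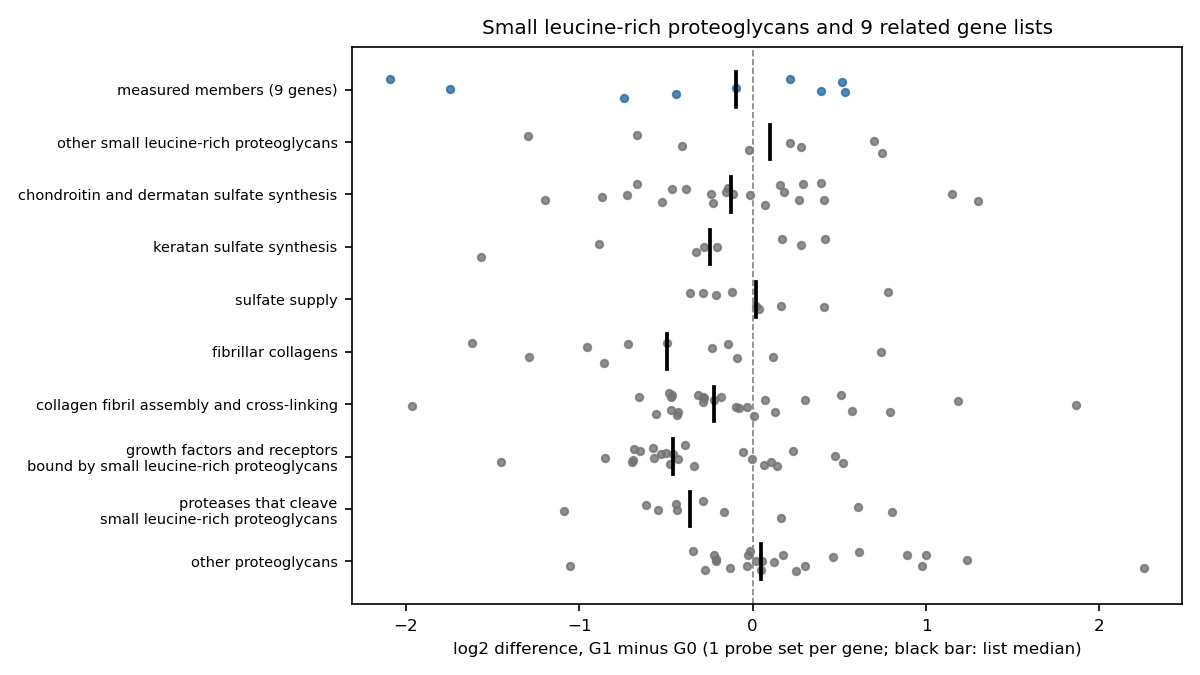
Log2 difference, G1 minus G0, of the 9 members and of the genes in 9 related lists, 1 probe set per gene. Points are genes and black bars are list medians, which run from −0.49 for fibrillar collagens to 0.10 for the other small leucine-rich proteoglycans. Of the list genes 0 of 142 passed in limma.

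Markers of cell types were compared in the same fit, as differences only. Of 8 fibroblast markers 0 passed, with a median of −0.30 and list medians per array from −0.04 to 0.29 in G0 and −0.30 to 0.21 in G1. For 10 markers of tendon, cartilage and bone, tissues rich in these proteoglycans, 0 passed and the median was 0.05, with arrays from −0.11 to 0.04 in G0 and −0.08 to 0.16 in G1. Of 7 leukocyte, 6 epithelial, 5 endothelial and 7 muscle and fat markers, 0 passed, with medians of 0.08, 0.20, 0.21 and 0.03. At an unadjusted p under 0.05 there were 1 fibroblast marker (lower), 2 leukocyte markers (lower), 1 endothelial marker (higher) and 0 of the others, where 8.07% of all genes reached it. The part of other cell types in the differences of Ogn and Nepn was not tested.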

How the data were processed

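RNA of 4 G0 and 4 G1 arrays was compared. The authors deposited log2 expression values that came from MAS5 according to the submitters' processing notes; its version, the log step and genome build are not given in the sources used here. Values were centred per probe set on the median of the arrays (largest absolute median 5e-07), so no filter on level was possible. The number of arrays limits the precision. After 64 control probe sets were left out, 45037 were fitted with limma 3.58.1 in R 4.3.3 (lmFit, eBayes with trend, labelling batch as covariate, two-sided, Benjamini-Hochberg over all of them); residual degrees of freedom were 5. Symbols came from the platform annotation, updated through Entrez for 34754 probe sets. A gene was represented by 1 probe set (suffix order _at, _a_at, _s_at, _x_at, then lowest number).

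Members and lists were chosen with earlier results of these data known. All members were named, in each list genes that passed and the 2 with the largest absolute moderated t, and the 5 nearest profiles with the members left out. Alternatives changed covariate, arrays, error model, scaling, probe set choice, and left out single replicates.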

Additional observations from a re-analysis of the deposited data

Results flagged for a closer look

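In 78 groups of 4 arrays, covering the 20 member probe sets and the list genes whose differences are given, 9 single values stood apart from the other 3 of their group by Dixon's criterion at the 95% level. Chance gives about 1 in 20 groups where values are normally distributed, and the share over all probe sets was not computed. The member probe sets made up 40 of the groups and held 3 of the values. Among the members, G1 replicate 4 read −2.00 for Dcn 1441506_at, where the other G1 arrays lay between −0.09 and 0.07. The same array read 4.38 for Prelp 1416322_at, where the others lay between −0.86 and −0.02. G1 replicate 2 read −1.42 for Fmod 1437718_x_at, where the others lay between 1.12 and 1.23.

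In the other 6 cases the gene was in a related list. Chad read 1.85 on G1 replicate 1, against −0.08 to 0.15. Epyc read −0.72 on G0 replicate 4, against 0.34 to 0.46, and −4.50 on G1 replicate 2, against −0.18 to 0.13. Chsy3 read −0.62 on G0 replicate 3, against 0.89 to 1.05, and G1 replicates 2 and 3 had that same lowest value. Tll1 read 1.76 on G0 replicate 3, against −1.81 to −1.48. Ncan read −0.72 on G1 replicate 1, against 1.78 to 2.15.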

How the results depend on the processing

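The number of member probe sets with a negative difference was 12 of 20 in the fit reported and 11 to 13 with any single replicate left out. Without replicate 4 of either group, the covariate absorbed the other replicate 4, so the differences were those of labelling batch 1. In 13 of the 20 the sign was the same under every alternative run, and all values of members moved by less than the pooled SD of their groups. The count of members past the adjusted threshold in limma was 0 in the fit reported. It was 1 without a batch covariate (Nepn) and 1 with the batch that the poly-A controls show as covariate (Nepn). With array weights it was 1 (Ogn 1419663_at). In those 3 fits 269, 355 and 190 of all probe sets passed. No test of the members is read from these counts, since they were chosen with this contrast known. The count of list genes past the adjusted threshold was 0, and 1 on the 6 arrays with poly-A controls (Tll1). Over all probe sets, 180 passed. This became 44 on the 6 arrays with those controls, 0 in labelling batch 1 alone and 0 to 122 with single replicates left out. Ncan differed by −0.043 with the mean of all its probe sets, and the cause was not tested. Deviations from the group means of arrays with the same title number correlated at 0.07, 0.11, −0.14 and −0.14 for replicates 1 to 4. The correlation was 0.31 for G0 replicate 3 with G1 replicate 4, the 2 arrays without poly-A controls. It was 0.10 for G0 replicate 4 with G1 replicate 3. For each G0 array the positive value given here was its highest with any G1 array. Whether the arrays were paired was not tested. With the replicate block, which followed the title numbers, 0 members, 0 list genes and 0 of all probe sets passed.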
